A study of Mus musculus with 8 samples.

Results

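The genes that drive T cells from G1 into S phase were examined in donor T cells with and without STAT3. The set held 10 genes, chosen by name as rows of the deposited gene tables: the D cyclins Ccnd2 and Ccnd3, their kinases Cdk4 and Cdk6, the E cyclins Ccne1 and Ccne2, the CIP/KIP inhibitors Cdkn1a and Cdkn1b, and the INK4 inhibitors Cdkn2c and Cdkn2d. These were 10 of 25078 gene rows, and all 10 were among the 12428 genes that passed the filter on low counts. No member was left out.

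Libraries were made from RNA of donor T cells sorted from the spleen of allogeneic recipients on day 6 after hematopoietic cell transplantation (HCT). Donors were C57BL/6 mice, either wild type (WT) or carrying floxed Stat3 alleles and a CD4-Cre transgene (STAT3ko). CD4-Cre acts from the stage at which thymocytes carry both CD4 and CD8, so both T cell types lose STAT3 while other donor cells do not. All groups shared lethally irradiated WT BALB/c recipients and T cell-depleted bone marrow from WT donors. The 4 groups were CD4 and CD8 T cells of each genotype, with 2 libraries each. Each library was a pool of cells from several recipients, so the p-values measure the spread between pools and not between single animals. The age of the mice is not given in the sources used here.

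D cyclins are made when a T cell receives antigen and cytokine signals. They bind CDK4 or CDK6, and the active kinases phosphorylate the retinoblastoma protein, which releases E2F factors. E2F factors then switch on Ccne1 and Ccne2, whose products bind CDK2 and commit the cell to DNA replication. INK4 proteins bind CDK4 and CDK6 and keep cyclin D away from them, whereas CIP/KIP proteins bind whole cyclin-CDK complexes and block CDK2 above all. In T cells, Ccnd2, Ccnd3 and Cdk6 are the usual early G1 genes, and Cdkn1b is a well-known brake of resting T cells. Levels are given below as CPM, counts scaled by TMM to a common library size, which compare libraries within a gene, and as RPKM, which are counts per length and also compare genes with each other. A bulk library cannot tell a change in RNA per cell from a change in the mix of cells, such as the share of cells in cycle.

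Promoter sequence was matched for 8 of the 10 members in RefSeq (GRCm38.p6), and Ccnd2 and Ccne2 had no entry. The 250 bases upstream of the start are shown for both kinases and both INK4 inhibitors, because in the results that follow the genes of each pair differ in how their levels compare between genotypes. They are written 5′ to 3′ along the strand of the gene. Capitals mark an E-box (CACGTG, the same on both strands) or a CCAAT box (CCAAT, or ATTGG where it lies on the other strand). The kinases are Cdk4 (chr10:127063285-127063534, plus strand) and Cdk6 (chr5:3343643-3343892, plus strand). The inhibitors are Cdkn2c (chr4:109666757-109667006, minus strand, the more upstream of 2 entries) and Cdkn2d (chr9:21291210-21291459, minus strand).
Cdk4: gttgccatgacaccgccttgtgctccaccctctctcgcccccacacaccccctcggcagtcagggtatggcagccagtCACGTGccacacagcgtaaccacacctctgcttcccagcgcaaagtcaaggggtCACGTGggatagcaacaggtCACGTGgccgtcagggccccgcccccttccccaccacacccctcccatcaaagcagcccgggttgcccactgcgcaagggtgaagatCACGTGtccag
Cdk6: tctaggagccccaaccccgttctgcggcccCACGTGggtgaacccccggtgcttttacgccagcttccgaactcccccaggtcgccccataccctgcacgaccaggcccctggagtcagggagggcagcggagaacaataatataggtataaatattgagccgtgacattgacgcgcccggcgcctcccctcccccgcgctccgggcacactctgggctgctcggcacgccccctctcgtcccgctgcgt
Cdkn2c: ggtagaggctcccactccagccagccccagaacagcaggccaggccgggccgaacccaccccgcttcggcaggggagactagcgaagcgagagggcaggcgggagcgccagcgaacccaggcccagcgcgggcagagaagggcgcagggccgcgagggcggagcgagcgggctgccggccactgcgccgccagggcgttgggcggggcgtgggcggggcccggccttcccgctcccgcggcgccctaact
Cdkn2d: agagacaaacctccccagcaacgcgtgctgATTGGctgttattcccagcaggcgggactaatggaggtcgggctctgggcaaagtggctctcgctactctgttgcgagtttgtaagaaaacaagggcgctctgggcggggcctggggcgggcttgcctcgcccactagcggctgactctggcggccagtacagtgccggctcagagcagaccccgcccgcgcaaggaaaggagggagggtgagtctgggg

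Cdk4 carried 4 E-boxes in this window and Cdk6 carried 1, whereas 6.02% of 32851 RefSeq promoters held at least 1. A CCAAT box was found in Cdkn2d (1 match), in Cdkn1b (2 matches) and in the more downstream entry of Ccnd3 (1 match), and in 33.8% of all promoters. The FOXO letters GTAAACA, read on both strands, were found once, in the more upstream entry of Ccnd3, and in 3.17% of all promoters. No match was found in the entries of the 8 members to the STAT letters TTCNNNGAA (7.02% of all promoters) or to the E2F letters TTTCCCGC (0.895%) and TTTGGCGC (0.417%). The searched motifs did not overlap each other in these windows. A match is a description of letters only.

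The libraries held between 20171396 and 23282757 counts. The targeted gene was examined first. Stat3 was at 436 and 428 CPM in WT CD4 and at 138 and 141 CPM in STAT3ko CD4 T cells (replicates 1 and 2), and its level fell by 67.6% (log2 fold change -1.63, SE 0.12). In CD8 T cells, Stat3 was at 431 and 436 CPM in WT and at 120 and 143 CPM in STAT3ko libraries, and it fell by 69.7% (log2 fold change -1.72, SE 0.12). Cd4 was at 1361 to 1602 CPM in the CD4 libraries and at 1.04 to 8.16 CPM in the CD8 libraries, and Cd8a was at 819 to 984 CPM in the CD8 libraries and at 1.70 to 15.996 CPM in the CD4 libraries, so both labels held. Marker sums are given as counts scaled by the column total alone. The 7 T cell markers were present in every library (summed CPM 5055 to 6061). Summed B cell markers were at 1.09 to 2.87 CPM in CD4 and 12.3 to 13.2 CPM in CD8 libraries. The 8 macrophage markers summed to 25.1 to 60.4 CPM in the replicate 1 libraries and to 98.1 to 186 CPM in the replicate 2 libraries of the 4 groups, so they separated the replicate numbers and not the genotypes. Within a replicate number the sum was also higher in CD8 than in CD4 libraries. It was 44.5 and 60.4 against 25.1 and 28.8 CPM in replicate 1 (WT and STAT3ko), and 186 and 157 against 98.1 and 126 CPM in replicate 2. The serial numbers in the sample titles also ran together within each replicate number, so a fit with the replicate number as a block was read beside the main test. Erythroid markers summed to 0.38 to 5.65 CPM, with the 4 globin genes at 0 in every library, and neutrophil and myeloid progenitor markers to 3.24 to 21.3 CPM. The part of other cells in the results was not tested.

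**Figure D1:**
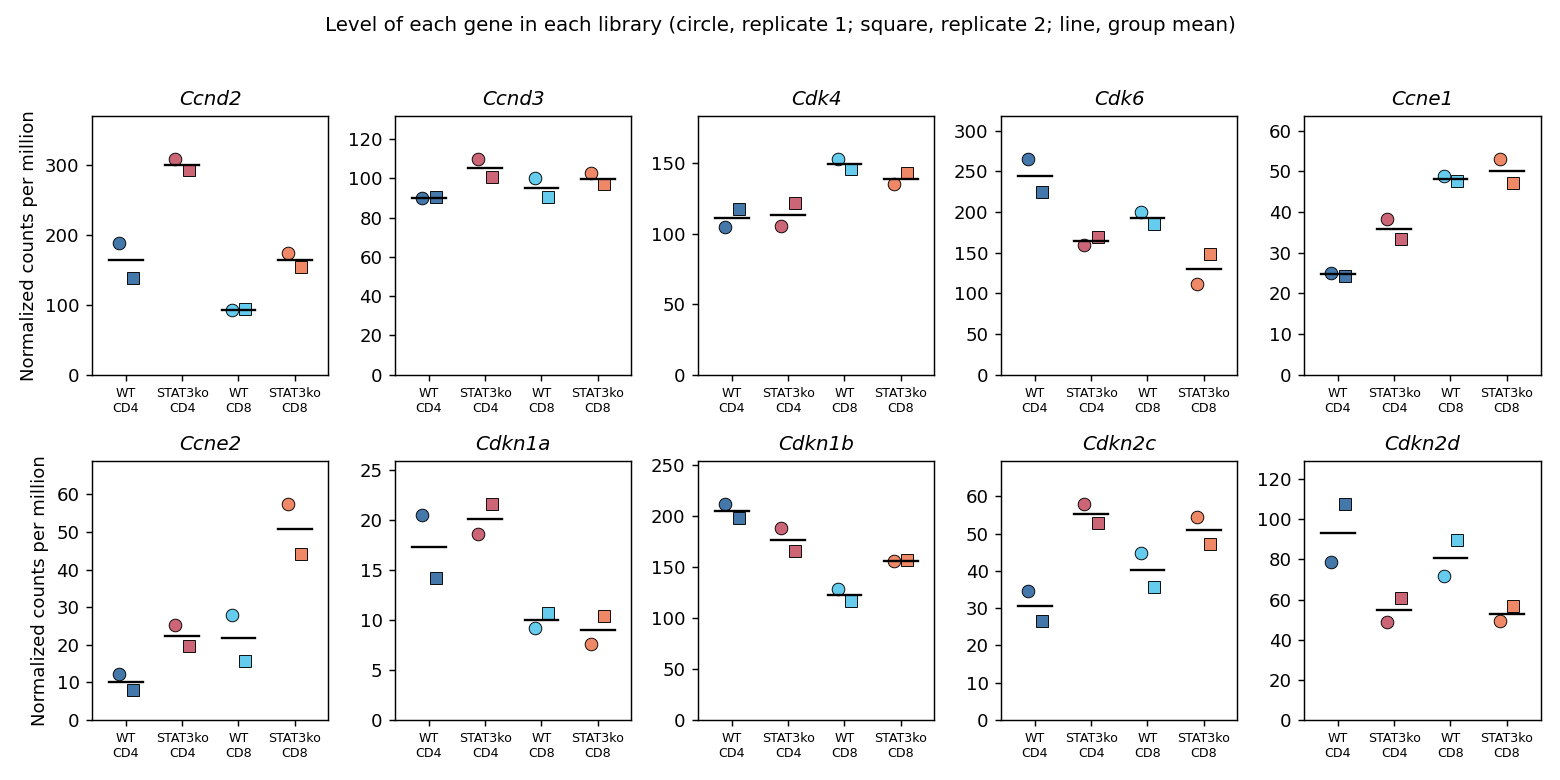
Each panel plots 1 gene, with the CPM on a linear axis from 0 and the 4 groups along the horizontal axis. Circles are replicate 1, squares replicate 2 and lines the mean of 2 libraries. Ccnd2 sits higher and Cdk6 and Cdkn2d sit lower in both STAT3ko groups than in the WT group of the same cell type, whereas Cdkn1b lies on opposite sides in CD4 and CD8 T cells.

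In STAT3ko compared with WT CD4 T cells, the D cyclin Ccnd2, the E cyclin Ccne1 and the INK4 inhibitor Cdkn2c rose, and the INK4 inhibitor Cdkn2d fell. These were 4 of 10 members called by the edgeR quasi-likelihood test (adjusted p under 0.05), whereas 11.6% of all 12428 genes were called in this comparison. Ccnd2 was the only member called in CD8 T cells, 1 of 10 against 2.07% of all genes. With the replicate block, 6 members were called in CD4 T cells and 6 in CD8 T cells, where 30.1% and 18.2% of all genes were called. The median absolute log2 fold change of the members was 0.56 for CD4 and 0.35 for CD8 T cells, beside 0.25 and 0.21 over all genes tested. The 2 libraries of each genotype did not overlap for 8 members in CD4 T cells and for 7 in CD8 T cells, and this was so for 53.5% and 49.7% of all genes.

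Among the D cyclins, Ccnd2 (chromosome 6, 127125709 to 127151048, mm10, minus strand) was at 189 and 138 CPM in WT CD4 and at 308 and 292 CPM in STAT3ko CD4 T cells. It was at 92.1 and 93.8 CPM in WT CD8 and at 174 and 154 CPM in STAT3ko CD8 T cells. Every STAT3ko library lay above both WT libraries of its cell type, and the STAT3ko CD8 libraries reached the range of WT CD4 T cells. Ccnd2 rose 1.84-fold in CD4 T cells (edgeR adjusted p 0.0117 at a log2 fold change of 0.88 with SE 0.15) and 1.77-fold in CD8 T cells (edgeR adjusted p 0.0452 at a log2 fold change of 0.82 with SE 0.15). The effect in CD8 minus that in CD4 T cells was -0.05 on the log2 scale, with a 95% confidence interval from -0.56 to 0.45.

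Ccnd3 (chromosome 17, 47505051 to 47599688, plus strand), the other D cyclin of T cells, was at 90.0 and 90.3 CPM in WT CD4 and at 110 and 101 CPM in STAT3ko CD4 T cells. The CD8 libraries had it at 100 and 90.4 CPM in WT and at 103 and 97.1 CPM in STAT3ko libraries. All 8 libraries thus lay close together, with log2 fold changes of 0.22 (95% confidence interval -0.01 to 0.45) for CD4 and 0.07 (-0.16 to 0.30) in CD8 T cells, neither past the threshold. Per length, Ccnd2 made up 45.1% and 37.4% of the summed RPKM of both D cyclins in WT CD4 and 52.3% and 53.1% in STAT3ko CD4 T cells. The share of Ccnd2 in CD8 libraries was 26.5% and 28.9% in WT and 40.0% and 38.4% in STAT3ko libraries. Ccnd3 was thus the more abundant D cyclin RNA in every library but those of STAT3ko CD4 T cells. Ccnd1, the D cyclin that T cells scarcely use, was at 0.1 to 1.3 CPM in the 8 libraries.

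Of the kinases, Cdk6 (chromosome 5, 3343893 to 3531005, plus strand) was at 265 and 224 CPM in WT CD4 and at 160 and 169 CPM in STAT3ko CD4 T cells, and the CD8 libraries had 199 and 185 CPM (WT) against 111 and 148 CPM (STAT3ko). The groups did not overlap in either cell type. The log2 fold change was -0.57 in both, with SE 0.15 in both, and neither passed the threshold (edgeR adjusted p 0.0513 for CD4 and 0.102 for CD8 T cells). Cdk6 in CD4 T cells did pass in DESeq2, in the edgeR likelihood-ratio test and in 9 other alternatives of 18. With the replicate block, Cdk6 passed in both cell types (edgeR adjusted p 0.00760 for CD4 and 0.0146 for CD8 T cells).

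Cdk4 (chromosome 10, 127063535 to 127067288, plus strand) was at 105 and 117 CPM in WT CD4 and at 105 and 122 CPM in STAT3ko CD4 T cells, and the CD8 libraries had 153 and 146 CPM (WT) against 135 and 143 CPM (STAT3ko). Its log2 fold change for STAT3ko was 0.03 (95% confidence interval -0.22 to 0.29) for CD4 and -0.10 (-0.36 to 0.15) for CD8 T cells. Per length, Cdk4 exceeded Cdk6 in every library, and Cdk6 made up 23.8% and 19.1% of their summed RPKM in WT and 15.7% and 14.6% in STAT3ko CD4 libraries. In the CD8 libraries its share was 13.8% and 13.6% in WT, against 9.2% and 11.3% in STAT3ko. Whether the E-boxes shown above have a part in the levels of either kinase was not tested.

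**Figure D2:**
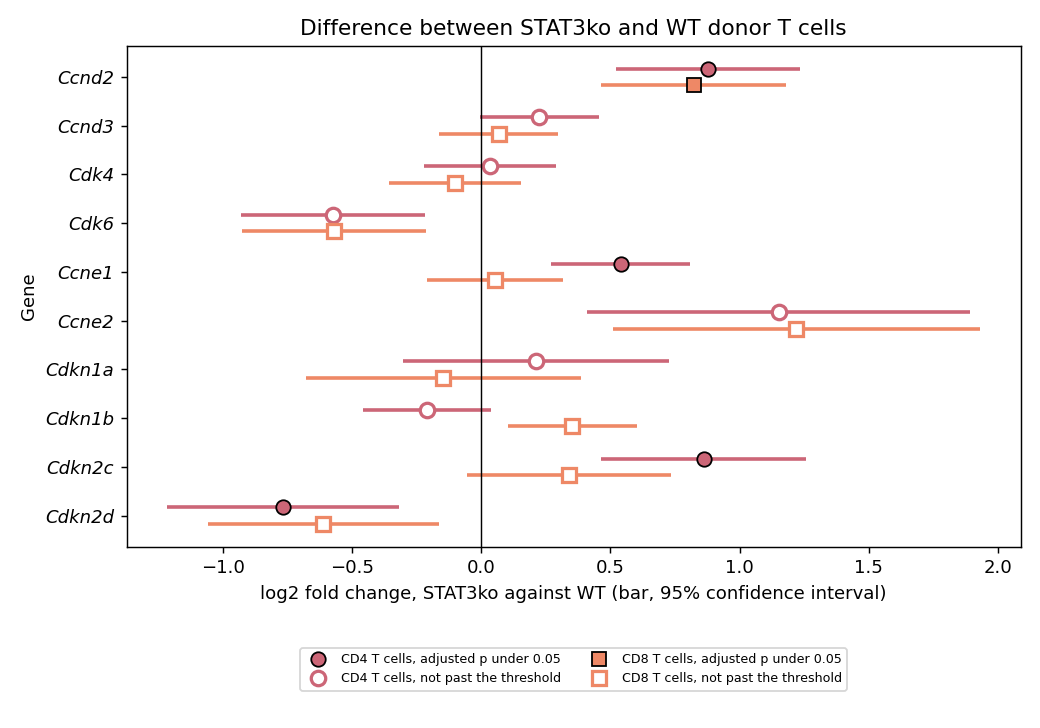
The horizontal axis is the log2 fold change of STAT3ko against WT, bars are 95% confidence intervals, circles are CD4 and squares CD8 T cells, with 2 libraries per group. Filled symbols passed an adjusted p of 0.05, which were Ccnd2, Ccne1, Cdkn2c and Cdkn2d in CD4 and Ccnd2 in CD8 T cells. The intervals of Ccnd2, Cdk6, Ccne2 and Cdkn2d lie on the same side of 0 in both cell types.

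Of the E cyclins, Ccne1 (chromosome 7, 38097984 to 38107490, minus strand) was at 25.0 and 24.2 CPM in WT CD4 and at 38.3 and 33.3 CPM in STAT3ko CD4 T cells, which was higher in both libraries. It was at 48.7 and 47.6 CPM in WT CD8 and at 52.95 and 47.09 CPM in STAT3ko CD8 T cells, where the genotypes overlapped. Ccne1 rose 1.45-fold in CD4 T cells (edgeR adjusted p 0.0247 at a log2 fold change of 0.54 with SE 0.12), and in CD8 T cells the log2 fold change was 0.05 (95% confidence interval -0.21 to 0.32). The effect in CD8 minus that in CD4 T cells was -0.49 on the log2 scale (SE 0.16, edgeR p 0.0183 before and 0.465 after adjustment), so the difference between cell types did not pass the threshold.

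Ccne2 (chromosome 4, 11191351 to 11204779, plus strand), which had the largest fold changes of the members, was at 12.2 and 8.03 CPM in WT CD4 and at 25.2 and 19.7 CPM in STAT3ko CD4 T cells. The CD8 libraries had it at 28.0 and 15.5 CPM in WT and at 57.3 and 44.0 CPM in STAT3ko libraries. No STAT3ko library overlapped the WT libraries of its cell type, but the WT replicates lay apart, with means of 10.1 ± 2.9 CPM for CD4 and 21.8 ± 8.8 CPM for CD8 T cells (SD, n = 2). Its log2 fold change was 1.15 (SE 0.32, edgeR adjusted p 0.0586) for CD4 and 1.22 (SE 0.31, edgeR adjusted p 0.0897) for CD8 T cells, neither past the threshold. With the replicate block both passed (edgeR adjusted p 0.000203 and 0.000319). Of 18 alternatives, Ccne2 was called in 7 for CD4 T cells and in 4 for CD8 T cells, which included DESeq2, the edgeR likelihood-ratio test and the fit without a filter for both. When 1 library was left out, the log2 fold change ran from 0.88 (without WT CD4 replicate 2) to 1.48 (without WT CD4 replicate 1) for CD4 T cells, and from 0.86 (without WT CD8 replicate 2) to 1.70 (without WT CD8 replicate 1) for CD8 T cells. The share of Ccne2 in the summed RPKM of both E cyclins was 22.8% and 16.8% in WT and 28.6% and 26.4% in STAT3ko CD4 libraries, and it went from 25.9% and 16.5% in WT to 39.7% and 36.2% in STAT3ko CD8 libraries.

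The INK4 inhibitors moved in opposite directions in CD4 T cells. Cdkn2c (chromosome 4, 109660876 to 109666756, minus strand; p18INK4c) was at 34.5 and 26.5 CPM in WT and at 57.9 and 52.9 CPM in STAT3ko CD4 libraries. It rose 1.82-fold (edgeR adjusted p 0.0186 at a log2 fold change of 0.86 with SE 0.17). Cdkn2c in CD8 libraries was at 44.9 and 35.5 CPM in WT and at 54.5 and 47.3 CPM in STAT3ko libraries, with a log2 fold change of 0.34 (95% confidence interval -0.05 to 0.73), which passed only with the replicate block among the alternatives (edgeR adjusted p 0.0319). Its difference between the cell types was -0.52 on the log2 scale (SE 0.24, edgeR adjusted p 0.673).

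Cdkn2d (chromosome 9, 21288464 to 21291209, minus strand; p19INK4d) was at 78.5 and 107 CPM in WT CD4 and at 48.6 and 60.7 CPM in STAT3ko CD4 T cells, and fell by 41.2% (edgeR adjusted p 0.0426 at a log2 fold change of -0.77 with SE 0.19). Its CD8 values were 71.8 and 89.5 CPM in WT and 49.0 and 56.6 CPM in STAT3ko libraries, without overlap, and the log2 fold change was -0.61 (SE 0.19, edgeR adjusted p 0.142). It passed there with the replicate block (edgeR adjusted p 0.00169) and in DESeq2. Its replicate 2 value was the higher in all 4 groups, as was that of the macrophage markers. Ccne1, Ccne2 and Cdkn2c had the higher value in replicate 1 of all 4 groups. For Cdkn2d, the log2 ratio of STAT3ko to WT within replicate number 1 was -0.69 for CD4 and -0.55 for CD8 T cells. Within number 2 it was -0.82 and -0.66. Cdkn2c thus made up 19.9% and 12.2% of the summed RPKM of both INK4 genes in WT CD4 and 40.2% and 32.9% in STAT3ko CD4 T cells. The CD8 libraries had 26.1% and 18.3% (WT) against 38.5% and 32.0% (STAT3ko). The sum itself was 76.5 and 97.2 RPKM in WT CD4 and 63.2 and 69.5 RPKM in STAT3ko CD4 T cells.

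**Figure D3:**
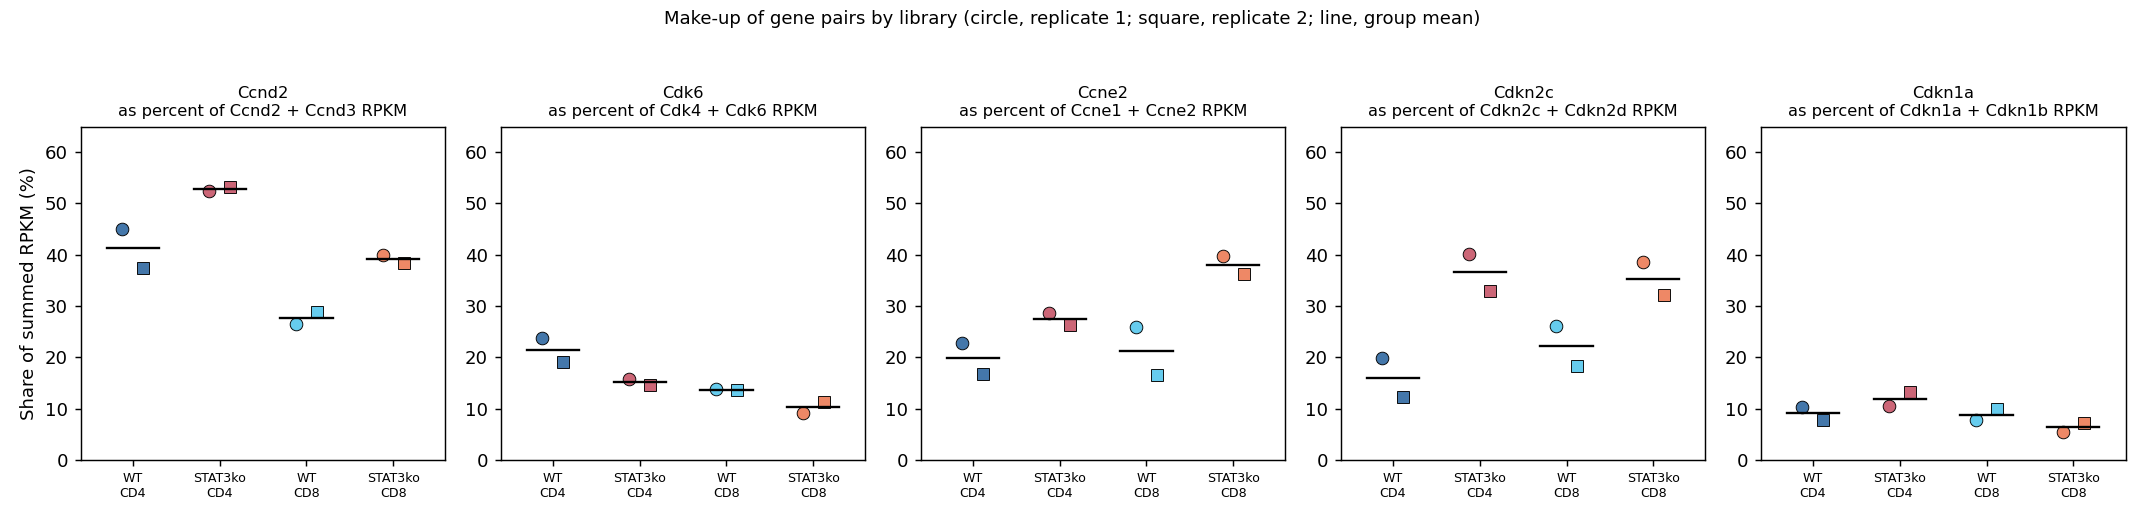
Each panel plots the share of 1 gene in the summed RPKM of a pair, in percent from 0, by group and library, with circles for replicate 1, squares for replicate 2 and lines for means. The share of Cdkn2c among the INK4 pair is 12.2% to 26.1% in WT and 32.0% to 40.2% in STAT3ko libraries, and the shares of Ccnd2, Ccne2 and Cdk6 also separate the genotypes within each cell type.

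Of the CIP/KIP inhibitors, Cdkn1b (chromosome 6, 134920401 to 134925525, plus strand; p27Kip1) was at 212 and 198 CPM in WT CD4 and at 188 and 166 CPM in STAT3ko CD4 T cells. The CD8 libraries had it at 129 and 116 CPM in WT and at 156 and 157 CPM in STAT3ko libraries. The genotypes did not overlap in either cell type, but STAT3ko lay below WT in CD4 and above it in CD8 T cells. The log2 fold change was -0.21 (95% confidence interval -0.46 to 0.04, edgeR adjusted p 0.251) and 0.35 (0.10 to 0.60, edgeR adjusted p 0.132). The effect in CD8 minus that in CD4 T cells was 0.56 on the log2 scale (SE 0.15, edgeR p 0.0062 before and 0.314 after adjustment), which did not pass the threshold. With the replicate block this difference passed (0.57, edgeR adjusted p 0.0214), as did the effect in CD8 T cells (edgeR adjusted p 0.0125), whereas the effect in CD4 T cells did not (edgeR adjusted p 0.0612). Within replicate number 1 the difference was 0.45, and within number 2 it was 0.69.

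Cdkn1a (chromosome 17, 29090979 to 29100722, plus strand; p21Cip1), a p53 target, was at 20.5 and 14.2 CPM in WT CD4 and at 18.6 and 21.6 CPM in STAT3ko CD4 T cells. It was at 9.21 and 10.7 CPM in WT CD8 and at 7.62 and 10.4 CPM in STAT3ko CD8 T cells. The genotypes overlapped in both cell types, and the log2 fold change was 0.21 (95% confidence interval -0.30 to 0.73) for CD4 and -0.15 (-0.68 to 0.39) for CD8 T cells. Per length, the 4 inhibitors together had 174 and 187 RPKM in WT CD4 and 149 and 147 RPKM in STAT3ko CD4 T cells. The same sum was 134 and 138 RPKM (WT) against 130.5 and 133 RPKM (STAT3ko) for CD8 T cells. Cdkn1b was the most abundant inhibitor per length in STAT3ko CD4 (72.3 ± 7.0 RPKM, SD, n = 2) and STAT3ko CD8 T cells (64.1 ± 0.5 RPKM), where Cdkn2d followed with 42.2 ± 6.2 and 40.9 ± 3.65 RPKM. In WT CD4 T cells the ranges of Cdkn1b and Cdkn2d overlapped, with means of 85.2 ± 3.0 and 73.3 ± 17.0 RPKM. In WT CD8 T cells both Cdkn2d values lay above both Cdkn1b values, with means of 62.9 ± 9.1 and 50.5 ± 4.2 RPKM. Cdkn1a was the least abundant inhibitor in each group, at 4.3 to 9.7 RPKM on average.

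No member passed the threshold for a difference of the STAT3ko effect between CD8 and CD4 T cells, 0 of 10 by the edgeR quasi-likelihood test, where 0% of all genes were called. At an unadjusted p under 0.05 there were 2 members, Cdkn1b and Ccne1, and 982 of all genes. DESeq2 also called 0 of the 10 members, with 1.51% of all genes called, and so did the edgeR likelihood-ratio test, with 1.1%. The replicate block called 1 of 10, Cdkn1b, with 3.24% of all genes called.

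Each call between genotypes rested on few libraries. Without WT CD4 replicate 2, only Ccnd2 passed in CD4 T cells (log2 fold change 0.67), and Ccne1 (0.51), Cdkn2c (0.68) and Cdkn2d (-0.52) did not, with 4.67% of all genes called. Without WT CD4 replicate 1, Ccne1 (0.56) did not pass. Without STAT3ko CD4 replicate 1, the count was 0 with 3.44% of all genes called, and Ccnd2 (0.84), Ccne1 (0.44), Cdkn2c (0.79) and Cdkn2d (-0.62) kept their signs. Without STAT3ko CD4 replicate 2, it was 0 with 3.32% of all genes called, and the same 4 genes had 0.91, 0.64, 0.92 and -0.94. Without STAT3ko CD8 replicate 1 or 2, which enter only through the shared spread and scaling, Cdkn2d in CD4 T cells (-0.78 and -0.77) did not pass and Cdk6 (-0.58 and -0.57) did. Without either WT CD8 library, Ccne2 in CD4 T cells (1.15 each) passed. In CD8 T cells, Ccnd2 lost its call without any one of 6 libraries, with a log2 fold change of 0.81 without WT CD8 replicate 1, 0.84 without WT CD8 replicate 2, 0.73 without STAT3ko CD8 replicate 1, 0.91 without STAT3ko CD8 replicate 2, and 0.82 without either STAT3ko CD4 replicate.

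CD8 and CD4 T cells were then compared within each genotype. In WT cells the comparison had 6 of 10 members called, beside 23.8% of all genes. Cdk4 was 1.35-fold higher (edgeR adjusted p 0.0276 at a log2 fold change of 0.43 with SE 0.11), Ccne1 was 1.96-fold higher (0.97, SE 0.12, edgeR adjusted p 0.00106) and Ccne2 was 2.15-fold higher (1.11, SE 0.32, edgeR adjusted p 0.0412). Ccnd2 was lower (edgeR adjusted p 0.00766 at a log2 fold change of -0.81 with SE 0.15), as were Cdkn1a (-0.80, SE 0.23, edgeR adjusted p 0.0392) and Cdkn1b (-0.74, SE 0.11, edgeR adjusted p 0.00237). For Ccnd3, Cdk6, Cdkn2c and Cdkn2d the log2 fold changes were 0.08, -0.35, 0.40 and -0.20, none past the threshold. The replicate block added Cdkn2c (edgeR adjusted p 0.00764). Without WT CD8 replicate 1 the count was 2, Ccne1 (0.95) and Cdkn1b (-0.82), with 12.7% of all genes called. Cdk4 also did not pass without WT CD4 replicate 1 (0.35), WT CD8 replicate 2 (0.46) or STAT3ko CD8 replicate 1 (0.41). Ccne2 also did not pass without WT CD4 replicate 2 (0.84) or any 1 of the 4 STAT3ko libraries (1.09 to 1.11). Cdkn1a also did not pass without WT CD4 replicate 1 (-0.51), WT CD8 replicate 2 (-0.91) or either STAT3ko CD4 library (-0.80 each).

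In STAT3ko cells, CD8 against CD4 T cells had 4 of 10 members called, beside 12.5% of all genes. Ccnd2 was lower in CD8 T cells (edgeR adjusted p 0.0114 at a log2 fold change of -0.87 with SE 0.15), as was Cdkn1a (-1.16, SE 0.23, edgeR adjusted p 0.0169). Ccne1 (0.48, SE 0.11, edgeR adjusted p 0.0333) and Ccne2 (1.18, SE 0.31, edgeR adjusted p 0.0452) were higher. Cdkn1b had a log2 fold change of -0.18 (95% confidence interval -0.43 to 0.07) in STAT3ko cells. The replicate block added Cdk4 (0.29, edgeR adjusted p 0.0262). The count was 0 without STAT3ko CD4 replicate 1 (3.68% of all genes called), its replicate 2 (4.54%) or STAT3ko CD8 replicate 1 (4.34%), and it was 1, Cdkn1a (-1.40), without STAT3ko CD8 replicate 2, with 5.14%. Without either WT CD8 library, Ccne1 (0.48 each) did not pass. The 2 comparisons of cell types share no library, but each shares its libraries with the comparisons of genotypes.

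Other cell-cycle genes were described beside the members. Of 21 S, G2 and M phase genes, 16 were called higher and 0 lower in STAT3ko CD4 T cells, where 11.6% of all genes were called. All 21 had a log2 fold change above 0 there, with a median of 1.11 beside 0.02 over all genes. Ccna2, the cyclin of S phase and early mitosis, was at 107 and 78.5 CPM in WT CD4 and at 237 and 228 CPM in STAT3ko CD4 T cells, and rose 2.51-fold (log2 fold change 1.33, SE 0.17). Bub1, a kinase of the spindle checkpoint, rose from 30.8 and 25.1 CPM to 75.9 and 71.2 CPM (log2 fold change 1.40, SE 0.17), and Ccnf, which encodes the F-box protein cyclin F, from 15.4 and 12.995 CPM to 35.2 and 34.1 CPM (log2 fold change 1.29, SE 0.15). In CD8 T cells 20 of these 21 genes had a log2 fold change above 0, with a median of 0.21 beside -0.01 over all genes. The edgeR quasi-likelihood test called 0 of them in either direction, where 2.07% of all genes were called. DESeq2 and the likelihood-ratio test each called 1 higher (7.12% and 6.56% of all genes called), and the replicate block called 6 higher (18.2%). Ccna2 was at 357 and 293 CPM in WT CD8 and at 428 and 460 CPM in STAT3ko CD8 T cells, so that every CD8 library lay above every CD4 library. In WT cells 19 of the 21 were called higher in CD8 than in CD4 T cells and 0 lower (median log2 fold change 1.49), beside 23.8% of all genes. In STAT3ko cells 12 were called higher and 0 lower (0.73), beside 12.5% of all genes, or 20 higher with the replicate block, beside 29.7%. All 21 had a log2 fold change above 0 in both genotypes.

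The count of 16 was 7 without WT CD4 replicate 2, 8 without STAT3ko CD4 replicate 1 and 6 without its replicate 2, and the count of 12 was 2 without either STAT3ko CD4 replicate, 4 without STAT3ko CD8 replicate 1 and 2 without STAT3ko CD8 replicate 2. These values were added after the counts had been seen. The levels of Ccne1 moved with this list, being lowest in WT CD4, higher in STAT3ko CD4 and higher still in both CD8 groups. Whether a larger share of cells in cycle has a part in the difference of any member was not tested.

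**Figure D4:**
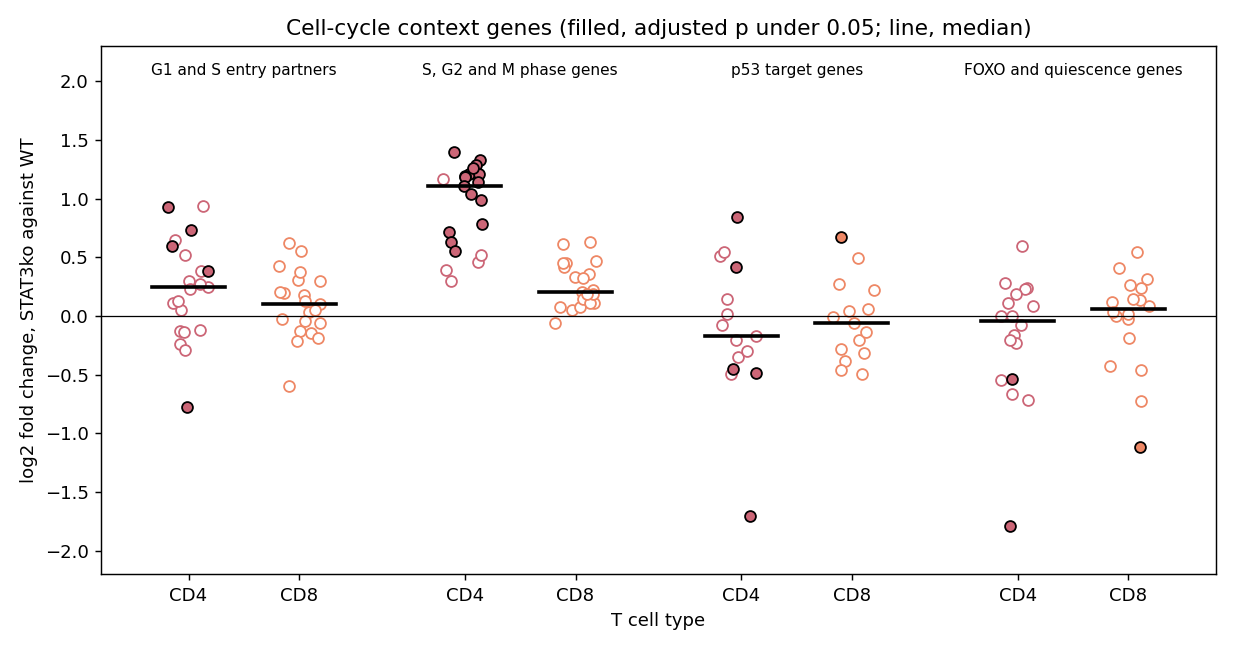
Each point is the log2 fold change of 1 gene for STAT3ko against WT in CD4 or CD8 T cells, in 4 lists of genes, filled where the adjusted p was under 0.05, and lines are medians. The S, G2 and M phase genes stand at a median of 1.11 for CD4 and 0.21 for CD8 T cells, and the medians of the other lists lie between -0.17 and 0.25.

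Of 21 genes that act with the members at the G1 to S step, 4 were called higher and 1 lower in STAT3ko CD4 T cells. There 11.6% of all genes were called, and the median log2 fold change of the 21 was 0.25. In CD8 T cells the quasi-likelihood test of edgeR called 0, where 2.07% of all genes were called, and the median was 0.10. E2f1, which encodes an activating E2F factor, was at 10.98 and 7.9 CPM in WT and at 18.0 and 18.1 CPM in STAT3ko CD4 libraries (edgeR adjusted p 0.0130 at a log2 fold change of 0.93 with SE 0.17). Cks1b, which helps to mark Cdkn1b protein for breakdown, rose from 26.0 and 27.2 CPM to 42.6 and 45.7 CPM (log2 fold change 0.73, SE 0.11). Rb1, which encodes the retinoblastoma protein that CDK4 and CDK6 phosphorylate, fell from 137 and 125 CPM to 87.2 and 65.2 CPM (edgeR adjusted p 0.0439 at a log2 fold change of -0.78 with SE 0.20).

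Of the p53 target genes, 15 of 17 were tested. In STAT3ko CD4 T cells 2 were called higher and 3 lower, beside 11.6% of all genes called, which is no common direction, and Cdkn1a was not among those called. Fas, the death receptor, fell from 69.3 and 102 CPM to 23.2 and 29.3 CPM (log2 fold change -1.70, SE 0.25), Aen, a nuclease, fell (-0.49, SE 0.11), and Perp, a membrane protein, rose (0.84, SE 0.15). In CD8 T cells 1 was called higher and 0 lower, beside 2.07% of all genes called. This was Trp53inp1, which went from 257 and 285 CPM to 394 and 470 CPM (edgeR adjusted p 0.0411 at a log2 fold change of 0.67 with SE 0.12).

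Of 18 FOXO and quiescence genes, 0 were called higher and 2 lower in CD4 T cells, which is about the share of all genes called there (11.6%). In CD8 T cells 0 were called higher and 1 lower, beside 2.07% of all genes. Tcf7, a factor of naive and memory T cells, fell from 1452 and 1345 CPM to 420 and 389 CPM in CD4 T cells (log2 fold change -1.79, SE 0.17) and from 285 and 386 CPM to 141 and 168 CPM in CD8 T cells (log2 fold change -1.12, SE 0.16). Lef1, its relative, fell in CD4 T cells from 214 and 201 CPM to 162 and 125 CPM (edgeR adjusted p 0.0481 at a log2 fold change of -0.54 with SE 0.14). Cdkn1b, itself a FOXO target, had STAT3ko values below WT in CD4 and above WT in CD8 T cells, as given above.

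The genes whose log2 CPM over the 8 libraries was most like that of each member, by Pearson r, are given as a description, because the highest of many correlations over few libraries is high by selection and the points share their group means. For Ccnd2 they were Gpr25, Gbp8 and Zfp820 (r 0.993, 0.988 and 0.987), and for Ccnd3 they were Ppp1r35, Pigu and Pck2 (0.979, 0.965 and 0.956). For Cdk4 they were Ranbp1, Rpn1 and Snrnp40 (0.986, 0.983 and 0.983), and for Cdk6 they were Rtl8b, Gspt2 and Lonrf1 (0.996, 0.982 and 0.976). Ccne1 was most like Cenpa, Eomes and St3gal6 (0.993, 0.992 and 0.991), and Ccne2 most like Dek, Hsh2d and Hells (0.996, 0.993 and 0.992). Cenpa encodes the histone of centromeres and Hells a chromatin remodeler of dividing cells. Cdkn1a was most like Kctd12, Nfkb2 and Sspo (0.984, 0.981 and 0.978), and Cdkn1b most like Vps37a, Fam172a and Map3k2 (0.975, 0.971 and 0.968). For Cdkn2c they were Rnf168, Zscan21 and Gfod1 (0.994, 0.990 and 0.989), and for Cdkn2d they were Rrp1, Tmem9 and Cirbp (0.992, 0.990 and 0.990).

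Some counts may be affected by a neighbour that shares exon bases, which was not tested. The overlaps were read in GENCODE M21, whereas the reads were counted per RefSeq gene. The deposited exon lengths were 1420 bases for Cdk4, 3220 for Ccne2 and 2260 for Ccnd3. In GENCODE M21, the exons of Cdk4 share 641 of 3249 bases with Tspan31, those of Ccne2 share 609 of 3495 bases with Ints8 and those of Ccnd3 share 361 of 8775 bases with Bysl, all on the opposite strand. Ccnd2, Cdk6 and Cdkn1a overlap opposite-strand transcripts of other kinds over 273 to 372 bases. Ccne1, Cdkn1b, Cdkn2c and Cdkn2d overlap no other exon. The strand setting of the counting is not given in the sources used here.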

How the data were processed

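The authors sorted donor H-2Kb+ TCRβ+ CD4+ or CD8+ T cells, aligned single-end reads to mm10 with STAR and counted them per RefSeq gene with htseq-count. They deposited raw read counts and RPKM values (reads per exon length and library size) for 25078 gene rows. Growth and treatment notes in the labels describe another cell system and were not used, and the labels and the methods name different library kits.

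From the deposited counts, filterByExpr (minimum count 10) kept 12428 genes, with 99.96% to 99.97% of each library's counts. TMM scaling and the quasi-likelihood test of edgeR 4.0.16 (R 4.3.3) were applied in 1 fit of all 8 libraries with a mean per group, two-sided, with Benjamini-Hochberg adjustment over all tested genes and a call at adjusted p under 0.05. SE came from the F statistic, and intervals are 95%. The deposited RPKM values served for levels per length and for limma 3.58.1 on log2(RPKM + pseudocount). DESeq2 1.42.0 was an alternative. Counting error is small at these depths: 3 counts are 0.129 to 0.149 CPM, which covers counting error only. Replicates of each group differed by more than sampling noise.

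Groups came from the labels. Deviations from the group means of libraries with the same replicate number correlated across genes with r of 0.424 to 0.671 over the 6 pairs of groups, and the serial numbers in the titles run together within a number. The study's methods name 2 batches for T cell receptor sequencing but do not say it of these libraries. The number was therefore a block in an alternative fit. Named were the members, Stat3, Cd4, Cd8a and Cd8b1, the 3 called genes of each context list with the largest change in each genotype comparison, and the 3 genes most correlated with each member. Ccnd1 and the globin markers were named after their values were seen. The value of 1 marker gene is not reported here. The members and lists were chosen with earlier results of these data known. Motifs were searched in the 250 bases upstream of RefSeq starts.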

Additional observations from a re-analysis of the deposited data

Results flagged for a closer look

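Cdkn1b was flagged for the difference of its STAT3ko effect between the T cell types. Its STAT3ko values lay on opposite sides of WT in CD4 and CD8 T cells, and the libraries of each genotype did not overlap. Such a lack of overlap was also found for 53.5% of all genes in CD4 and 49.7% in CD8 T cells. In STAT3ko CD4 T cells both libraries (188 and 166 CPM) lay below both WT libraries (212 and 198 CPM), and in CD8 T cells both STAT3ko libraries (156 and 157 CPM) lay above both WT libraries (129 and 116 CPM). Neither effect passed the threshold in the main test. The log2 fold change was -0.21 (edgeR adjusted p 0.251) for CD4 and 0.35 (edgeR adjusted p 0.132) for CD8 T cells. Of 18 alternatives, 0 called the effect in CD4 T cells and 1, the replicate block, called that in CD8 T cells. The effect in CD8 minus that in CD4 T cells was 0.564 on the log2 scale, with an edgeR p of 0.0062 before and 0.314 after adjustment. With the replicate number as a block the edgeR adjusted p was 0.0214. The same difference was 0.45 within replicate number 1 and 0.69 within number 2.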

How the results depend on the processing

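Over 10 members, 5 comparisons and all alternatives, 440 of 490 values kept direction and side of the threshold under other settings, and 323 of 400 did so when 1 library was left out. Total counts turned the Cdk6 difference between cell types to -0.0057. Counts of members called are given here with the share of all genes called in brackets. In CD4 T cells the count (4, 11.6%) was 6 in DESeq2 (14.9%), in the likelihood-ratio test (15.3%) and without a filter on low counts (8.93%). It was also 4 with only the groups compared (7.64%), where Cdk6 and Ccne2 were called and Ccne1 and Cdkn2d were not. It was 1 with limma on log2(RPKM + 1) without a filter (6.22%). In CD8 T cells the count (1, 2.07%) was 4 in DESeq2 (7.12%), 3 in the likelihood-ratio test (6.56%) and 2 without a filter on low counts (2.58%). It was 0 with only the groups compared (0.161%) and in the 3 limma fits (0.38% to 1.55%). DESeq2 called Cdk6, Ccne2 and Cdkn2d there beside Ccnd2. For CD8 against CD4, the count in WT cells (6, 23.8%) was 3 with only the groups compared (15.6%). In STAT3ko cells the count (4, 12.5%) was 2 with limma without a filter (6.33%). For the difference of effects it stayed 0 when 1 library was left out. Other scalings shifted the all-gene median fold change by 0.042 or less (log2).

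With a replicate block, 6 members were called in CD4 T cells (30.1% of all genes), 6 in CD8 T cells (18.2%), 1 for the difference of effects (Cdkn1b, edgeR adjusted p 0.0214; 3.24%), 7 for CD8 against CD4 in WT (42.1%) and 5 in STAT3ko cells (29.7%). The block took no member's call away. It raised the S, G2 and M phase genes called higher from 0 to 6 for STAT3ko in CD8 T cells and from 12 to 20 for CD8 against CD4 in STAT3ko cells.

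Signs that turned when 1 library was left out belonged to values whose interval in the main fit included 0. In the main fit these reached 0.21 (Cdkn1a in CD4 T cells) and -0.20 (Cdkn2d, CD8 against CD4 in WT cells). The ranges in CD4 T cells were -0.0743 to 0.135 for Cdk4 and -0.0309 to 0.501 for Cdkn1a. In CD8 T cells they were -0.0061 to 0.143 for Ccnd3, -0.0341 to 0.137 for Ccne1 and -0.388 to 0.0558 for Cdkn1a. For the difference of effects they were -0.22 to 0.20 for Cdk6, -0.29 to 0.55 for Ccne2, -0.30 to 0.15 for Ccnd2 and -0.089 to 0.364 for Cdkn2d. For CD8 against CD4 of Cdkn2d they were -0.414 to 0.0397 in WT and -0.20 to 0.12 in STAT3ko cells. The number of libraries limits these values more than depth, since members had 158 counts or more in every library.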
